A study of Harpegnathos saltator with 12 samples.

Results

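Among the genes expressed in the adult antenna of the ant Harpegnathos saltator, 71 had higher normalized read counts in both wild-type libraries than in every library from a carrier of the orco mutation. They were chosen from 13602 genes with LOC identifiers, of 14407 genes in all, by 3 conditions on the deposited normalized counts (raw read counts divided by a size factor of the library). The wild-type mean was at least 100, the wild-type mean was at least 4 times the heterozygote mean, and the lower wild-type value exceeded the highest of the 10 carrier values plus 1. The genes were ranked by the last of these ratios. All differences from wild type therefore describe how the genes were chosen and were not tested.

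RNA was measured by sequencing of polyadenylated RNA in 12 antennal libraries, from 7 homozygous orco mutant, 3 heterozygous and 2 wild-type samples. The homozygotes carried 2 mutant copies of orco, the heterozygotes 1 and the wild type 0. The mutation was made with CRISPR, and the labels give neither the allele nor the age, caste or colony of the ants nor the number pooled in a library. Homozygote replicate 1, heterozygote replicate 1 and wild-type replicate 2 were sequenced in batch 1 and the other 9 libraries in batch 2, so each batch holds 1 wild-type library. Because nothing states that libraries of a genotype came from separate colonies, p-values measure the spread between these libraries only.

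Orco is the co-receptor that odorant receptors need in order to reach the dendrite and respond to odors. An insect antenna also holds support cells, which secrete odorant-binding proteins into the fluid around the dendrites, epidermis that builds the cuticle, glia, muscle in its basal segments and hemolymph, and RNA from all of these enters a bulk library. In bulk RNA, fewer cells of a type and less RNA per cell cannot be told apart. Orco had 143 to 1700 normalized counts in homozygotes, against 26888, 17740 and 17830 in heterozygotes and 23957 and 29982 in wild type. It checks the homozygote labels only, since heterozygotes and wild type overlapped. The neuronal gene nSyb had 1919 to 3531 in homozygotes and 8688 to 10356 in heterozygotes, against 7427 and 8579 in wild type. In the other general neuronal markers, Syt1, fne and onecut, the homozygotes overlapped another genotype. Syt1 had 1595 to 3594 in homozygotes and 3574 to 5017 in heterozygotes, against 2227 and 3919 in wild type. For fne the values were 2168 to 6270, 3236 to 5655, and 4094 and 5103, in the same order. For onecut they were 148 to 521, 1129 to 2286, and 294 and 1911. In Rh50, of ammonia-sensing neurons, and nompC, of mechanosensory neurons, the homozygotes overlapped neither genotype. Rh50 had 830 to 1154 in homozygotes and 282 to 664 in heterozygotes, against 252 and 228 in wild type. For nompC the values were 138 to 223, 81.0 to 120, and 261 and 226, in the same order. The glial gene repo had 1120 or more in every library.

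The 71 genes contributed between 0.257% and 0.871% of the gene counts of a homozygote library and between 0.252% and 0.523% of a heterozygote library. In wild type they contributed 6.99% in replicate 1 and 2.41% in replicate 2. Depth was 5651682 to 23238969 gene counts in homozygotes, 6605209 to 11684876 in heterozygotes, and 14170829 and 4111828 in wild-type replicates 1 and 2. The choice of genes requires a gap in each batch, so the sums per batch describe its size only. In batch 1 the summed normalized count of the 71 genes was 34845 in homozygote replicate 1 and 27302 in heterozygote replicate 1, against 233171 in wild-type replicate 2. In batch 2 it was 57983 to 87773 in homozygotes and 31516 and 50030 in heterozygotes, against 735060 in wild-type replicate 1.

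**Figure D1:**
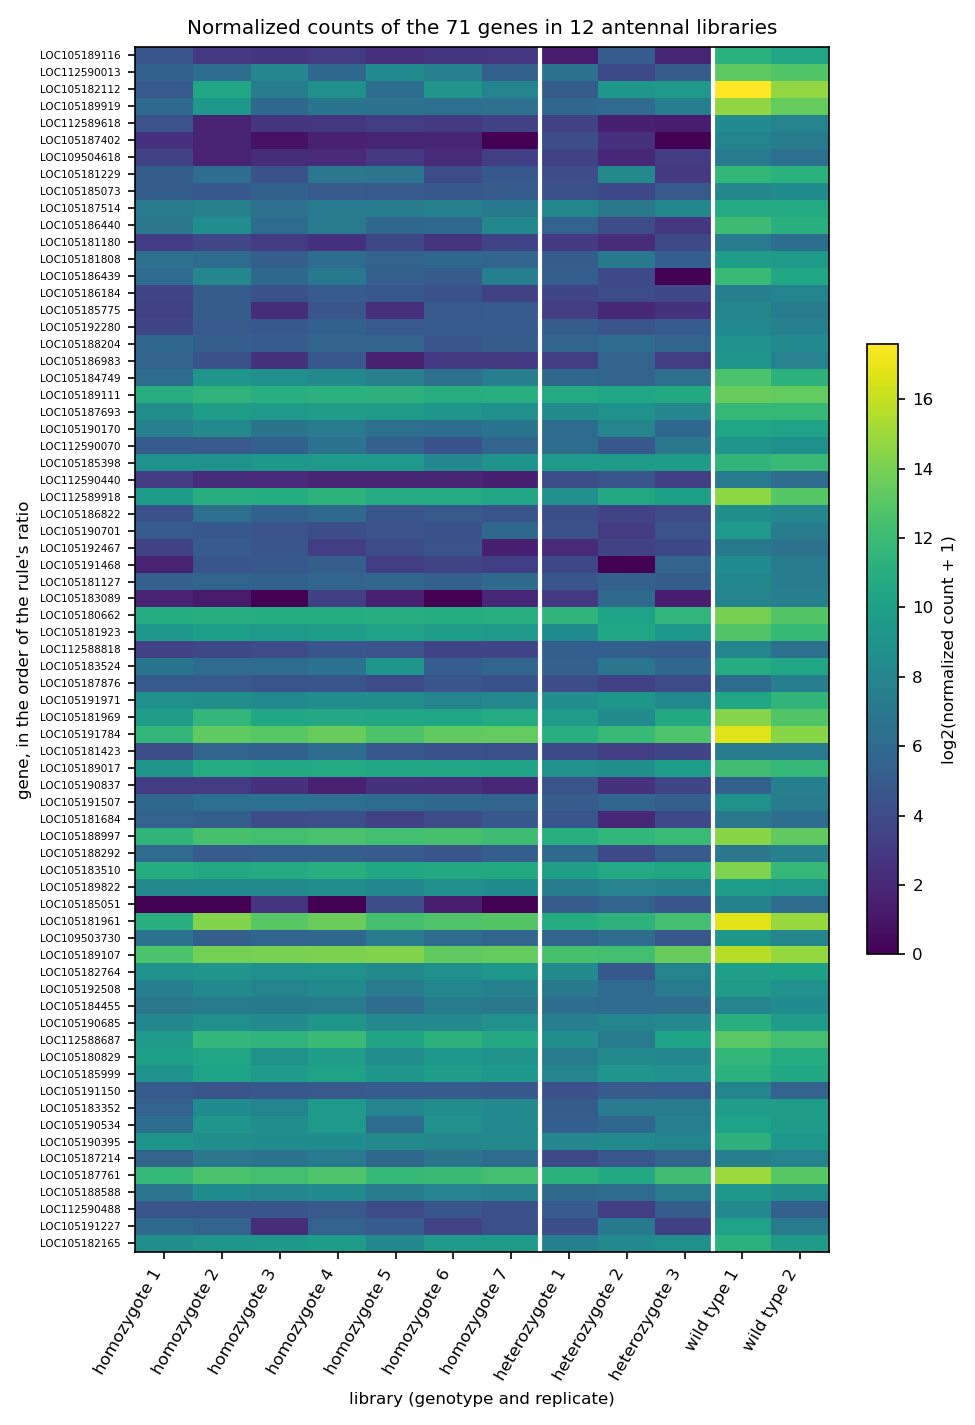
Normalized counts of the 71 genes, 1 gene per line in the order of the ratio used to rank them, in 12 libraries (columns: 7 homozygotes, 3 heterozygotes, 2 wild types), with color giving log2(normalized count + 1). The wild-type columns are the brightest in every line, as the choice of genes requires, and the carrier columns are darker in both genotypes.

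The ratio of the lower wild-type value to the highest carrier value ran from 39.5 down to 1.03, with a median of 2.37, and exceeded 5 for 15 genes. The wild-type mean was 4.06 to 236 times the heterozygote mean (median 8.50) and 1.98 to 255 times the homozygote mean (median 7.88). The choice set no limit on the homozygote mean, but every homozygote value had to lie below the lower wild-type value. The homozygote mean lay at least 4 times under the wild-type mean for 55 of the 71 genes, which the choice favors. At the edge of the choice, the last 3 genes inside had ratios of 1.10 (LOC112590488), 1.04 (LOC105191227) and 1.03 (LOC105182165), and the first 3 outside had 0.91 (LOC105186692), 0.90 (LOC105181155) and 0.89 (LOC105192533).

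RefSeq annotation of the assembly (Hsal_v8.6) matched all 71 genes. It listed 61 as protein coding, 8 as long noncoding RNA and 2 as pseudogenes. Long noncoding RNAs made up 11.3% of the 71, against 4.25% of the tested LOC genes. Among the 8, LOC105181923, LOC112589918, LOC109503730 and LOC105190701 lay along a single stretch (gaps given below), so this share rests partly on neighbors. Only 7 of the 71 carried a gene symbol: hgo, Hpd, P5CS, Lipt1, Lsd-1, Cyp304a1 and Spag1.

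Enzymes for the breakdown of tyrosine were represented by consecutive steps. Insects use tyrosine both as a fuel, broken down through homogentisate, and as the raw material for pigments and for the hardening of new cuticle. Hpd (LOC105183352) encodes 4-hydroxyphenylpyruvate dioxygenase, which makes homogentisate, and hgo (LOC105181229) encodes homogentisate dioxygenase, which opens its ring. The homozygotes had 15.7 to 122 normalized counts of hgo (median 36.0) and the heterozygotes 16.4, 303 and 6.55, against 3175 and 2370 in wild type. Its wild-type mean was 47.1 times the homozygote mean and 25.5 times the heterozygote mean. For Hpd the homozygotes had 45.6 to 699 (median 333) and the heterozygotes 36.1, 151 and 170, against 881 and 876 in wild type. The wild-type libraries agreed closely in Hpd, whereas homozygote replicate 4 came near to them.

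The other genes of this route did not share the pattern in full. This list and those below were drawn up with the 71 genes known, and the heterozygote and homozygote comparisons share the wild-type libraries. Faa, for fumarylacetoacetase, the last step, had 298 to 783 in homozygotes (median 685) and 189, 266 and 450 in heterozygotes, against 1146 and 614 in wild type. It passed the test as lower both in homozygotes (log2 fold change -0.87, adjusted p = 0.00442, edgeR quasi-likelihood test) and in heterozygotes (-1.68, adjusted p = 0.000806), where 25.8% and 8.14% of all genes were lower. The homozygote call was lost when wild-type replicate 1 was left out (-0.97, adjusted p = 0.0585), and wild-type replicate 2 lay below the homozygote median. Phenylalanine hydroxylase (Hn) and tyrosine aminotransferase (Tat), the entry steps, passed in neither comparison. Some genes that use tyrosine for pigment and cuticle chemistry were higher in carriers. Tyrosine hydroxylase (ple) had 29986 to 76412 in homozygotes and 22142, 59464 and 50314 in heterozygotes, against 4146 and 1466 in wild type. Of 5 such genes (ple, Ddc, e, tan and black), 3 were higher in homozygotes (ple, Ddc and black) and 2 in heterozygotes (ple and black) than in wild type, where 19.1% and 9.71% of all genes were higher. The others did not pass, and tan had 41.0 to 226 in homozygotes and 31.2, 266 and 36.0 in heterozygotes, against 191 and 424 in wild type. Without wild-type replicate 1, 2 were higher in each genotype, and with library totals 1 was also lower in homozygotes.

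P5CS (LOC105190170), whose enzyme makes the proline precursor pyrroline-5-carboxylate from glutamate, had 81.1 to 317 in homozygotes (median 112) and 70.5, 251 and 56.5 in heterozygotes, against 1290 and 1120 in wild type. Of the 6 other proline and glutamate genes measured, 3 were higher than wild type in homozygotes, where 19.1% of all genes were higher, and 2 in heterozygotes, where 9.71% were. Without wild-type replicate 1 only Gdh, for glutamate dehydrogenase, passed in either genotype, and with library totals 2 were higher and 1 lower in homozygotes. Of 18 genes for the breakdown of other amino acids, 1 was higher than wild type in homozygotes (KFase, of the kynurenine route), and 2 were higher and 4 lower in heterozygotes, where 8.14% of all genes were lower. With that library left out again none passed in homozygotes by edgeR, and 1 was lower in heterozygotes. Lsd-1 (LOC105181684), a perilipin that coats lipid droplets in Drosophila, had 10.3 to 45.6 in homozygotes (median 18.5) and 24.6, 2.79 and 13.9 in heterozygotes, against 125 and 82.4 in wild type. Of 12 other genes of lipid storage and synthesis, 1 (Agpat1, an acyltransferase of phospholipid and triglyceride synthesis) was lower than wild type in heterozygotes, and 2 (Agpat1 and Seipin) were lower and 1 (ATPCL) higher in homozygotes. These shares lie near or under the 8.14% and 25.8% of all genes that were lower. Agpat1 passed without either wild-type library, whereas Seipin and ATPCL did not pass in homozygotes without wild-type replicate 1.

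Cyp304a1 (LOC105187693), a cytochrome P450, had 411 to 902 in homozygotes (median 703) and 359, 532 and 284 in heterozygotes, against 3379 and 3281 in wild type. Of the 9 other named P450 genes tested, Cyp18a1, which inactivates ecdysteroids, was higher in homozygotes and in heterozygotes than in wild type. Cyp301a1 was higher in homozygotes, and the others did not pass. Over all genes, 19.1% were higher in homozygotes and 9.71% in heterozygotes. Without wild-type replicate 1 or 2 the heterozygote call of Cyp18a1 was lost (adjusted p = 0.109 and 0.0518), as was the homozygote call of Cyp301a1 (adjusted p = 0.0563 and 0.143). Lipt1 (LOC105190395), a lipoyl transferase for mitochondrial enzymes, had 268 to 543 in homozygotes (median 367) and 277, 337 and 238 in heterozygotes, against 2542 and 661 in wild type. Spag1 (LOC105185073), which in mammals takes part in assembling the dynein arms of cilia, had 27.0 to 43.0 in homozygotes (median 31.9) and 19.7, 13.0 and 29.5 in heterozygotes, against 281 and 372 in wild type.

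**Figure D2:**
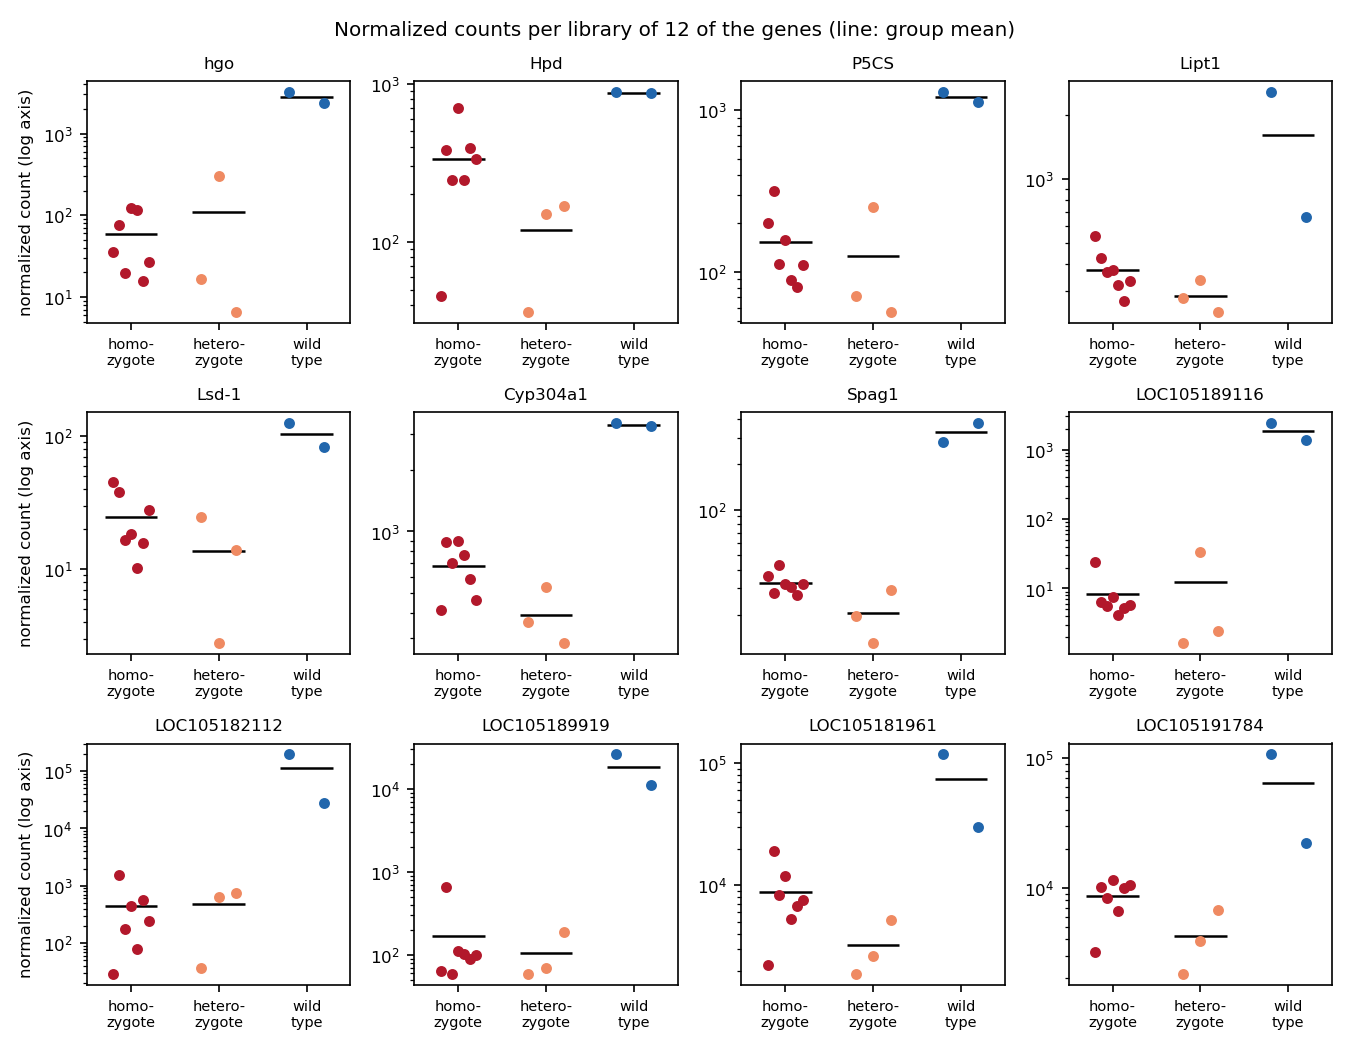
Normalized counts per library (log axis) of the 7 genes with symbols and of 5 without (LOC105189116, LOC105182112, LOC105189919, LOC105181961 and LOC105191784), for homozygotes (7 points), heterozygotes (3) and wild type (2), with a line at each group mean. For P5CS, Cyp304a1 and Hpd the 2 wild-type points lie close together, whereas for LOC105182112 and LOC105191784 they lie 7.09 and 4.81 times apart.

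The widest separation was that of LOC105189116, a protein-coding gene that the study's annotation places under lipid transport and steroid breakdown. It had 4.12 to 24.0 normalized counts in homozygotes (median 5.80) and 1.64, 33.5 and 2.46 in heterozygotes, against 2373 and 1363 in wild type. LOC112590013 followed, with 41.6 to 357 in homozygotes (median 75.7) and 103, 13.97 and 35.2 in heterozygotes, against 9449 and 7002 in wild type. In both genes carriers overlapped across genotypes, and the wild-type libraries differed by less than 2 times. The long noncoding RNA LOC112589618 had 2.16 to 21.6 in homozygotes and 9.84, 1.86 and 1.64 in heterozygotes, against 352 and 235 in wild type.

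The rest of the first 25 are given by their ranges. LOC105187402 and LOC109504618 had at most 4.80 and 9.60 in any homozygote and 16.4 and 9.84 in any heterozygote, against at least 162 and 84.7 in wild type. LOC105181180, LOC105186184, LOC105185775, LOC105192280, LOC105188204 and LOC105186983 had no carrier value above 78.2, against 82.4 or more in wild type. LOC105187514, LOC105181808, LOC112590070 and LOC105185398 had no carrier value above 839, and their lowest wild-type value was 447, in LOC112590070, whose highest carrier value was 127. LOC105187514 was the steadiest of these in wild type, with 86.9 to 212 in homozygotes and 267, 129 and 276 in heterozygotes, against 1752 and 1732 in wild type.

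Further genes carried a functional label in the study's annotation. LOC105184749, listed under regulation of lipid synthesis, had 72.0 to 605 in homozygotes (median 197) and 59.0, 53.1 and 86.8 in heterozygotes, against 6143 and 2478 in wild type. LOC105189111, listed under response to insecticide and sensory perception, had 1980 to 2703 in homozygotes (median 2179) and 1694, 1336 and 1672 in heterozygotes, against 11722 and 10391 in wild type. LOC105186822, listed under inflammatory response, had 19.2 to 90.8 in homozygotes and 18.04, 11.2 and 16.4 in heterozygotes, against 432 and 275 in wild type. LOC105183524, listed under pupal cuticle development, had 36.6 to 563 in homozygotes and 41.0, 120 and 58.2 in heterozygotes, against 1914 and 1290 in wild type. Homozygote replicate 5 held the 563, and the next highest carrier value was 120.

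Much of the summed count came from few genes. Counts are not corrected for gene length, so they do not rank the genes by transcript number. The 5 genes with the highest wild-type means, LOC105182112, LOC105181961, LOC105191784, LOC105189107 and LOC105187761, gave 43.0% to 59.7% of the counts of the 71 genes in the carriers, against 68.6% and 49.8% in wild-type replicates 1 and 2. LOC105182112 had 28.8 to 1521 in homozygotes (median 244) and 36.1, 645 and 738 in heterozygotes, against 195712 and 27615 in wild type. LOC105181961 had 2240 to 19196 in homozygotes (median 7542) and 1883, 2650 and 5190 in heterozygotes, against 117484 and 29971 in wild type. The long noncoding RNA LOC105191784 had 3178 to 11390 in homozygotes and 2162, 3860 and 6691 in heterozygotes, against 106550 and 22171 in wild type. It overlaps nAChRalpha1, a neuronal acetylcholine receptor subunit, in RefSeq. The counts carry no strand and leave out reads that match both genes, so the count of either gene could be affected. The counts of nAChRalpha1 ran the other way, higher than wild type in homozygotes (log2 fold change 2.22, adjusted p = 0.00426) and in heterozygotes (1.89, adjusted p = 0.0288). LOC105189107 had 6119 to 19281 in homozygotes and 5575, 4983 and 11354 in heterozygotes, against 52548 and 28309 in wild type, and LOC105187761 had 3421 to 6814 in homozygotes and 2462, 1529 and 4607 in heterozygotes, against 31869 and 8082 in wild type. In all, 16 of the 71 genes overlap another annotated gene, among them hgo, Hpd and P5CS.

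Several of the genes sit beside each other. Scaffold names are not given in the table used, so runs of rising start positions were taken as scaffolds. LOC105182112 and LOC105189919 lay 80.3 kb apart with 5 genes between them, and LOC105189919 lay 5.91 kb from Obp6, which is itself adjacent to Obp5. LOC105189919 had 59.0 to 657 in homozygotes (median 98.6) and 59.0, 69.8 and 189 in heterozygotes, against 25863 and 10963 in wild type. The long noncoding RNAs LOC105181923, LOC112589918 and LOC109503730 lay in a row, with gaps of 0.676 and 4.22 kb, and another, LOC105190701, lay 45.6 kb from LOC109503730. LOC112589918 had 840 to 2602 in homozygotes and 461, 1598 and 1015 in heterozygotes, against 24504 and 7847 in wild type. LOC105181961 and LOC105181969 lay 0.768 kb apart, LOC105186439 and LOC105186440 lay 6.38 kb apart, and LOC105189107 and LOC105189111 lay 14.5 kb apart with 1 gene between them. The immediate neighbors outside the 71 numbered 127, of which 85 were tested. Of these, 22 (25.9%) were lower than wild type in homozygotes and 16 (18.8%) in heterozygotes, beside 25.8% and 8.14% of all genes. In the other direction, 23 (27.1%) were higher than wild type in homozygotes and 6 (7.06%) in heterozygotes, beside 19.1% and 9.71% of all genes.

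Odorant-binding proteins carry odor molecules through the fluid of the sensillum. No named odorant-binding protein gene was among the 71. Of 6 tested, 5 were lower than wild type in homozygotes, where 25.8% of all genes were lower. In heterozygotes 3 were lower, where 8.14% of all genes were, and Obp10 passed in neither. The same counts came with library totals, and DESeq2 gave 5 in each genotype. Obp5 had 13088 to 24498 in homozygotes (median 21701) and 11986, 17270 and 20734 in heterozygotes, against 96056 and 34862 in wild type. Obp6, its neighbor, had 7055 to 12618 in homozygotes and 7472, 9694 and 13189 in heterozygotes, against 42355 and 17546 in wild type. Both were lower in either carrier genotype (log2 fold changes -1.93 and -1.76 in homozygotes, -1.98 and -1.58 in heterozygotes, adjusted p between 5.01e-05 and 0.00197, edgeR). Their values were highest in wild-type replicate 1. Without that library 3 of the 6 were lower in homozygotes and 2 in heterozygotes, and without wild-type replicate 2 all 6 were lower in both.

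The wild-type libraries differed between themselves. Of the 71 genes, 61 were higher in wild-type replicate 1 and 10 in replicate 2, with a median ratio of 1.63, whereas 49.9% of all tested LOC genes were higher in replicate 1 (median ratio 0.99). The values lay within 2-fold of each other for 41 genes and over 4-fold apart for 8. The largest ratios were those of LOC112590488 (332 and 40.0 in wild-type replicates 1 and 2), LOC105191227 (1095 and 141) and LOC105182112. The smallest were those of LOC105190837 (40.8 and 188), LOC105187876 (73.5 and 179) and LOC105191971 (1385 and 2869). For LOC112590488 heterozygote replicate 3 had 35.2, against the 40.0 of wild-type replicate 2.

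The genes after the first 25 had ratios between 1.03 and 3.08. LOC105180662 had 1851 to 2077 in homozygotes and 2836, 1197 and 3024 in heterozygotes, against 15745 and 7466 in wild type. LOC105183510 had 1521 to 2061 in homozygotes and 1005, 1680 and 1286 in heterozygotes, against 18211 and 3389 in wild type. The homozygotes came nearest to wild type in LOC105182764, with 329 to 659 in homozygotes and 356, 27.0 and 242 in heterozygotes, against 962 and 1019 in wild type. For that gene the wild-type mean was 1.98 times the homozygote mean and 4.75 times the heterozygote mean. LOC105181423 had 16.8 to 82.0 in homozygotes and 14.8, 8.38 and 11.5 in heterozygotes, against 159 and 158 in wild type, and in LOC112588687 the homozygotes had 706 to 3804 and the heterozygotes 399, 142 and 1173, against 8534 and 5145 in wild type. In each of these last 3 genes every homozygote lay above at least 2 of the 3 heterozygotes, although none of them passed the test of homozygote against heterozygote (adjusted p = 0.082, 0.0617 and 0.0723, edgeR).

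Each wild-type library was also left out of the choice and then read against the same 10 carriers, whose values the choice had kept low. Chosen without wild-type replicate 1, 88 genes met the conditions, and in that library 59 of them (67.0%) exceeded all 10 carriers, against 28.4% of the other LOC genes tested. Chosen without wild-type replicate 2, the maximum of 100 genes was reached, and in that library 83 of them (83.0%) exceeded all carriers, against 18.8% of the others. Of the 71 genes, 51 and 58 were among these choices. A carrier library left out in the same way lay below both wild types for 97.4% to 100% of the genes chosen without it. For the others the share was 23.2% to 33.2%. Here the choice had required the wild-type values to be high. The other LOC genes were not chosen on any of these values, so they are no fair reference. Nothing is read from these shares.

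Homozygotes and heterozygotes were compared to find out whether the genes also followed the second mutant copy. The choice did not rank on this difference, but it required a low heterozygote mean and set no such limit on the homozygote mean, which favors homozygote values above heterozygote values. The shares and the median given next for all genes therefore are no measure of what these genes would show without a difference, and nothing is read from the comparison with them. All 71 genes passed the minimum mean count of 10, 6 of them only through their wild-type counts. By edgeR's quasi-likelihood test with genotype and batch, adjusted over 10740 genes, 10 of the 71 were higher in homozygotes (14.1%), where 6.82% of all genes were higher, and 4 were lower (5.63%), where 16.2% of all genes were lower. Over the 71 genes the fitted log2 fold changes had a median of 0.52, and over all genes -0.02. The homozygote mean was above the heterozygote mean in 49 of the 71. In batch 2 alone 6 were higher and 3 lower. The number higher depended on single libraries, being 3 without heterozygote replicate 2, 5 without heterozygote replicate 1 and 6 without homozygote replicate 2 or 4.

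**Figure D3:**
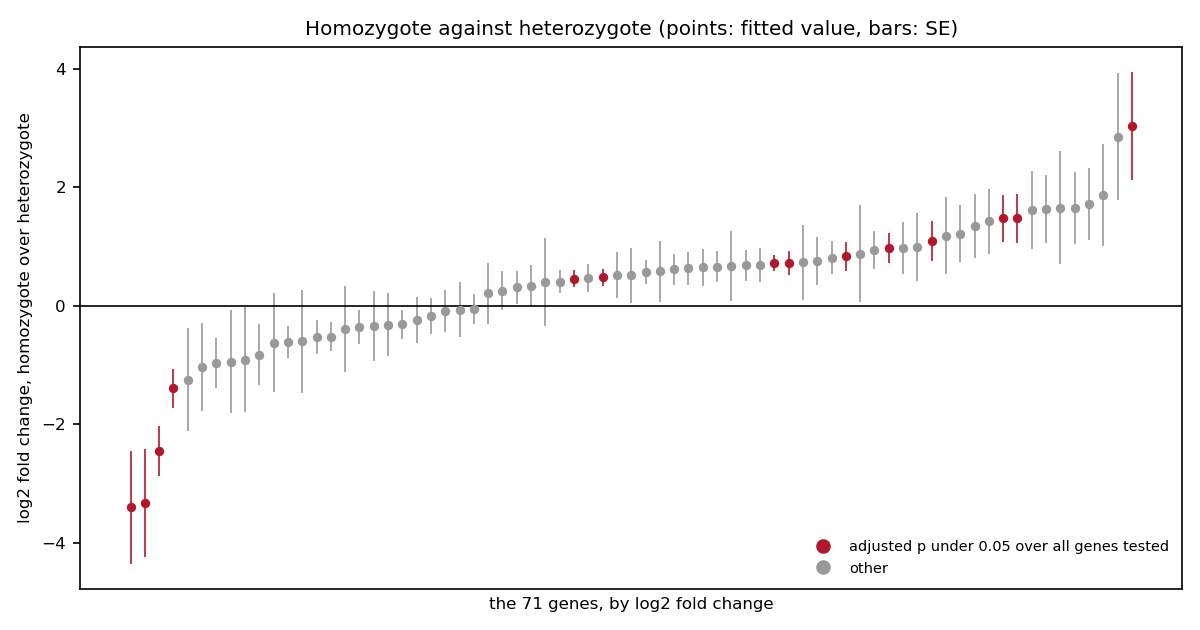
Fitted log2 fold change of homozygote over heterozygote for each of the 71 genes, sorted, with bars of 1 standard error, in red where the adjusted p over all genes tested was under 0.05. The 10 red points above 0 reach 3.04 and the 4 below 0 reach -3.40, with most genes between -1 and 2.

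Among the genes higher in homozygotes, the largest difference was that of LOC105186440. It had 58.1 to 387 normalized counts in homozygotes (median 122) and 45.9, 14.9 and 5.73 in heterozygotes (log2 fold change 3.04, SE 0.91, adjusted p = 0.0339, edgeR). All homozygotes lay above all heterozygotes, and both lay below the 4152 and 2311 of wild type. Its neighbor LOC105186439 had 34.0 to 275 in homozygotes and 37.7, 13.97 and 0 in heterozygotes, and its log2 fold change of 2.86 did not pass (adjusted p = 0.0786). In both genes homozygote replicates 2, 7 and 4 had the highest carrier values.

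LOC105180829 had 389 to 1325 in homozygotes (median 651) and 161, 347 and 285 in heterozygotes (log2 fold change 1.48, SE 0.42, adjusted p = 0.0262, edgeR). LOC105187214 had 50.4 to 159 in homozygotes and 14.8, 26.1 and 52.4 in heterozygotes (1.48, SE 0.40, adjusted p = 0.0206). LOC105188588 differed by 1.09 (SE 0.33, adjusted p = 0.0364). LOC105189017, which the study's annotation lists under toxin breakdown and sulfur compound synthesis, had 627 to 1792 in homozygotes and 466, 437 and 922 in heterozygotes (0.97, SE 0.25, adjusted p = 0.0185). The other 5 (LOC105184455, LOC105185999, LOC105189822, LOC105189111 and LOC105188997) differed by 0.46 to 0.84. LOC105189822 had 299 to 451 in homozygotes and 177, 221 and 208 in heterozygotes, without overlap (0.72, SE 0.14, adjusted p = 0.00285), and passed under each of the 19 alternatives tried.

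The 4 genes lower in homozygotes had at most 68.0 normalized counts in any carrier. LOC112590440 had 1.93 to 7.20 in homozygotes and 16.4, 24.2 and 9.01 in heterozygotes, without overlap, against 160 and 77.7 in wild type (homozygote over heterozygote -2.45, SE 0.42, adjusted p = 0.00127, edgeR). It averaged 7.3 raw counts per carrier library and is one of the 6 genes tested only through their wild-type counts. LOC105185051 was at 0 in 4 homozygotes and at most 16.5 in the others, with 34.4, 48.4 and 24.6 in heterozygotes, against 213 and 77.7 in wild type (-3.34, SE 0.91, adjusted p = 0.0223). The pseudogene LOC112588818 had 9.60 to 24.6 in homozygotes and 37.7, 37.3 and 34.4 in heterozygotes, against 264 and 91.8 in wild type (-1.40, SE 0.33, adjusted p = 0.0108), and passed under each of the 19 alternatives. LOC105183089 had 0 to 8.89 in homozygotes and 6.56, 68.0 and 1.64 in heterozygotes, so that its difference (-3.40, SE 0.96, adjusted p = 0.0257) rested on heterozygote replicate 2. Without that library the fitted difference was -0.42 (adjusted p = 0.862, the highest over the alternatives, the lowest being 0.00494). Of the 14 genes called, LOC105188997 passed under 7 of the 19 alternatives, the fewest.

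The batches were also compared, with genotype held fixed. The choice used the values of the libraries of both batches, so it can shape the batch differences of the 71 genes. The shares given next for all genes are therefore no fair reference, and nothing is read from the comparison with them. Of the 71 genes, 14 were higher in batch 2 (19.7%), where 19.7% of all genes were higher. Another 2 were lower (2.82%), where 17.8% of all genes were lower. The count higher was 7 without heterozygote replicate 1, the only heterozygote of batch 1, and 8 and 7 without wild-type replicates 1 and 2. LOC105182112 had the largest log2 difference, 3.75 (SE 0.94, adjusted p = 0.0111), and Hpd differed by 1.75 (SE 0.57, adjusted p = 0.0320). Neither passed without heterozygote replicate 1. Of the 10 genes higher in homozygotes, 3 were also higher in batch 2 (LOC105189017, LOC105188997 and LOC105185999).

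Carrier libraries were not alike in the 71 genes. The highest carrier value fell in a homozygote for 50 of the genes and in a heterozygote for 21. An equal share would be 7.1 genes per carrier library, so this split lies near what the number of libraries of each genotype gives. The unevenness lay between single libraries. Homozygote replicates 2 and 4 held the highest carrier value for 18 and 14 genes, more than any other library. Their summed normalized counts of the 71 genes were 87773 and 82872. Homozygote replicate 1, of batch 1, had the lowest sum of the homozygotes, 34845.

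Markers of other tissues were also compared with wild type. Over 23 genes named for cuticle proteins and chitin enzymes, the summed normalized count was 21910 to 77710 in homozygotes and 28028 to 38378 in heterozygotes, against 5982 and 6261 in wild type. Of all genes, 19.1% were higher and 25.8% lower than wild type in homozygotes, and 9.71% were higher and 8.14% lower in heterozygotes. Of the 21 cuticle and chitin genes tested, 14 were higher and 3 lower than wild type in homozygotes, and 10 were higher and 2 lower in heterozygotes. Without wild-type replicate 1, 10 were higher and 1 lower in homozygotes and 3 were higher in heterozygotes. Cht7, a chitinase, had 784 to 5881 in homozygotes and 2493, 2231 and 2116 in heterozygotes, against 25.2 and 33.0 in wild type. Within the homozygotes the cuticle sum was lowest in replicates 2 and 4, the libraries with the highest sums of the 71 genes. It was highest in replicate 1, which had the lowest sum of the 71 genes and was the only homozygote of batch 1. Homozygote replicate 5 came next in the cuticle sum (69383), yet its sum of the 71 genes (60356) lay above those of replicates 6 and 7. Among heterozygotes, replicate 1 had the highest cuticle sum and the lowest sum of the 71 genes. The lowest cuticle sum was in heterozygote replicate 2, but the highest sum of the 71 genes in replicate 3. A relation between the sums was not tested. Over 14 sarcomere genes of muscle the sum was 127164 to 261991 in homozygotes and 30648 to 150695 in heterozygotes, against 39918 and 56103 in wild type. Of the 14, 11 were higher in homozygotes and 4 in heterozygotes, beside 19.1% and 9.71% of all genes. Without wild-type replicate 1 those counts were 8 and 0. With library totals and with DESeq2 the muscle genes that passed were all higher in carriers, and the cuticle and chitin genes were mostly higher.

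**Figure D4:**
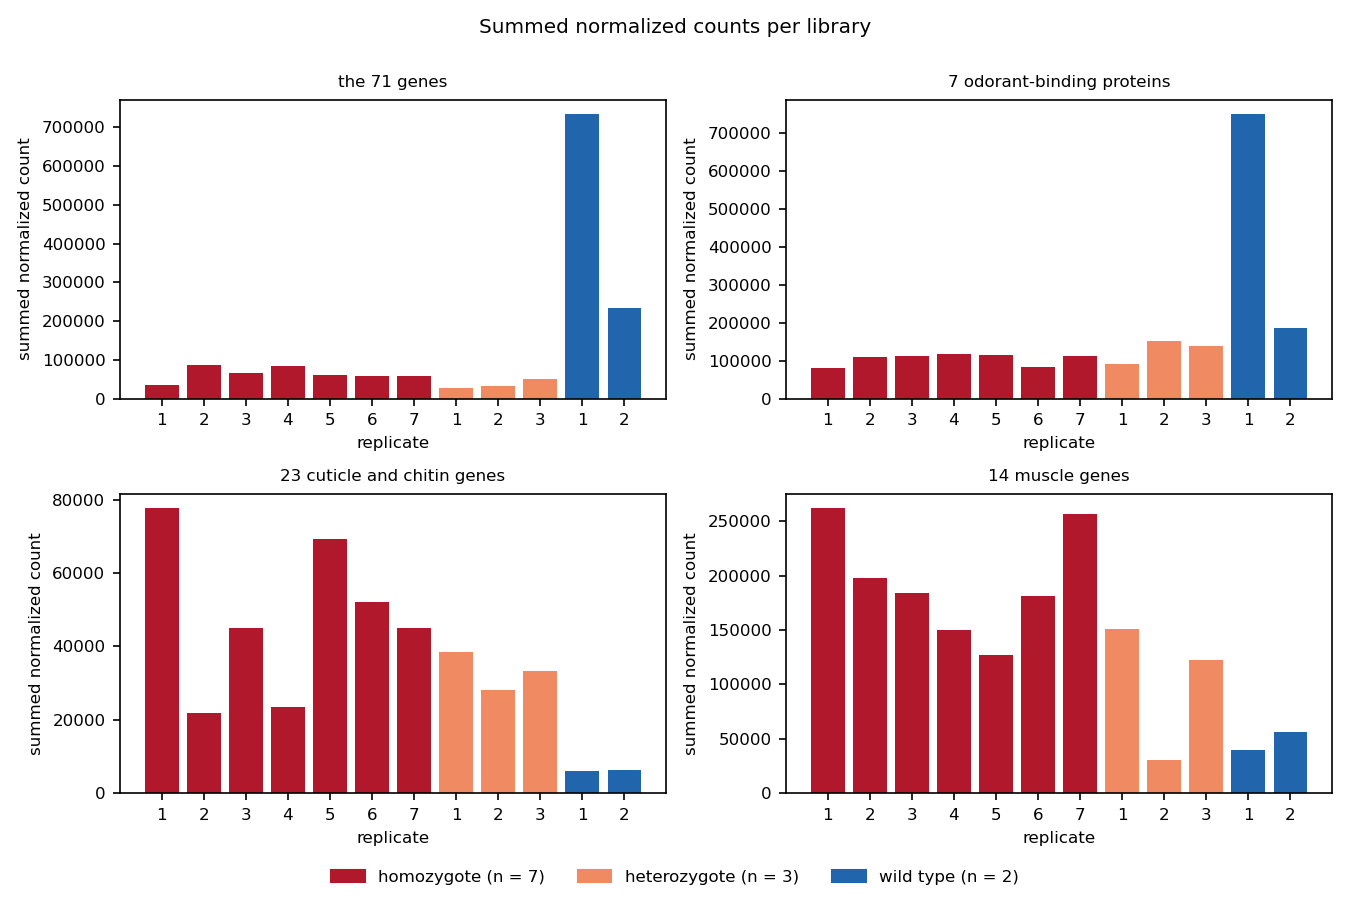
Summed normalized counts per library for the 71 genes, 7 odorant-binding protein genes, 23 cuticle and chitin genes and 14 muscle genes, with bars in the order homozygotes, heterozygotes, wild type. The 71 genes reach no more than 87773 in a carrier, against 735060 and 233171 in wild type, whereas cuticle and chitin genes reach 77710 in a carrier, against 6261 in wild type.

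Fat body and blood cell markers were also read. The lipid carrier gene apolpp had 1321 to 5212 in homozygotes and 489, 558 and 1642 in heterozygotes, against 3509 and 7063 in wild type, and the storage protein genes Hex70a and Hex70c were at or near 0 in all genotypes, at most 30.6 in any library. Of 3 listed fat body genes tested, apolpp and Vhdl were lower than wild type in heterozygotes, where 8.14% of all genes were lower. Hex110 was higher in homozygotes, where 19.1% of all genes were higher. Neither heterozygote call was left without wild-type replicate 1 or 2, and without replicate 2 the Hex110 call was lost. Vgn (LOC105181726), by its symbol a vitellogenin gene, was not in this list and passed in neither comparison with wild type. It had 358 in wild-type replicate 2, 93.5 in heterozygote replicate 1 and 411 in homozygote replicate 1, all of batch 1. No batch 2 library had more than 7.43 (log2 difference of batch 2 over batch 1 -7.70, adjusted p = 9.29e-05, edgeR). Whether the ants of the batches differed was not tested. Of 3 blood cell genes, PPO (prophenoloxidase) and Pxn were higher than wild type in homozygotes and PPO in heterozygotes. The shares of all genes that were higher were 19.1% and 9.71%. Without wild-type replicate 1, and likewise with library totals, only the homozygote call of PPO was left. Hml had 674 to 1482 in homozygotes and 1394, 568 and 713 in heterozygotes, against 423 and 2090 in wild type. Epithelial grh was uneven in wild type, with 235 to 718 in homozygotes and 179, 289 and 189 in heterozygotes, against 55.7 and 678 in wild-type replicates 1 and 2. Support cell sv had 206 to 552 in homozygotes and 353, 108 and 175 in heterozygotes, against 20.05 and 259. Another support cell marker, LOC105190591, went the other way. It had 780 to 1085 in homozygotes and 1673, 1283 and 1718 in heterozygotes, against 2056 and 1720 in wild type. The other support cell markers, LOC105182650 and LOC105188530, passed in neither comparison with wild type. The part of these tissues in the pattern of the 71 genes was not tested. Cuticle and chitin genes also change as an insect's cuticle matures, and the labels give no age, so in every comparison with wild type a difference in age between the sampled ants cannot be told apart from genotype.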

How the data were processed

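Antennal RNA of 12 samples was sequenced after library preparation with the NEBNext Ultra II kit. The authors counted reads per gene with STAR 2.6.1d and deposited raw counts per library, in which reads with several positions or several genes were left out. They also deposited a table of normalized counts, the counts divided by DESeq2 1.34.0 size factors, here called signal values. Each column equalled its raw counts times 1 constant per library. The lines that name no gene (unmapped 1.92% to 6.53%, several positions 1.69% to 2.79%, no gene 13.0% to 18.3%, several genes 2.29% to 4.23% of reads) stayed out. The 2 strand columns were nearly equal, so the libraries were read as unstranded. The 12 columns of the table all matched samples.

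The 71 genes, the gene lists and the tests were chosen with earlier results of these data known. Values per library are the deposited normalized counts. Differences were fitted on the raw counts with edgeR 4.0.16 (limma 3.58.1, R 4.3.3), TMM scaling, genotype and batch, all 12 libraries and a mean count of at least 10, with Benjamini-Hochberg adjustment over 10740 genes and calls at 0.05. The standard error of a fitted change was its absolute size over the root of F. The test was tested on simulated data. Summaries used Python 3.11.15, numpy 2.4.6, pandas 2.3.3 and matplotlib 3.10.9. The genes named are the first 25 by rank, the 5 with the highest wild-type mean, the 5 with the largest called difference of homozygote against heterozygote in each direction, the 3 largest and 3 smallest ratios between the wild-type libraries, and the 3 on either side of the ratio of 1. Genes with symbols or functional labels and their neighbors were added after the values were seen. Families could not be drawn from descriptions, which the RefSeq table used does not carry, so lists by symbol took their place. DESeq2 1.42.0 and the alternatives given with the limits were also run.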

Additional observations from a re-analysis of the deposited data

Results flagged for a closer look

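In 8 of the 43 named genes a single homozygote library lay far from the other 6. The gap was beyond the critical value of Dixon's test for 7 values. For normally distributed values chance alone gives this in about 1 of 20 groups, a rate that low counts need not follow. Homozygote replicate 1 stood high in LOC105189116 (24.0 normalized counts, next highest 7.52), LOC112589618 (21.6, next 9.67) and LOC112590440 (7.20, next 3.60). These values rested on 10, 9 and 3 raw reads in the homozygote library with the fewest gene counts. For each of these genes another homozygote library had more raw reads. Homozygote replicate 2 stood high in LOC105182112 (1521, next 569) and LOC105189919 (657, next 113), which lie 80.3 kb apart. Homozygote replicate 4 stood high in LOC112590070 (103, next 52.2) and LOC105183089 (8.89, next 2.90), and homozygote replicate 5 in LOC105185051 (16.5, next 5.58). All of these values lay below the lower wild-type value of the gene, as the choice requires.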

How the results depend on the processing

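The number of genes meeting the conditions was 33 with a wild-type minimum of 1000 and 40 with a wild-type to heterozygote ratio of 8, all of them among the 71, and 76 on TMM-scaled values, of which 70 were among the 71. Without 1 library it was 69 to 100. For homozygote against heterozygote, 4 of the 71 genes were higher with library totals, 26 with DESeq2 and 6 in batch 2 alone, and 3 to 14 were higher and 3 to 5 lower without 1 library. Calls over all genes were 2468, with 1486 without the batch term and 1479 to 3131 without 1 library. For homozygote against wild type they were 4816, with 2966 without the batch term and 1962 to 5978 without 1 library, the lowest without wild-type replicate 1. For heterozygote against wild type they were 1917, with 721 without the batch term, 3592 in batch 2 alone and 452 to 3908 without 1 library, the lowest without wild-type replicate 1 and the highest without wild-type replicate 2. For batch they were 4022, with 2786 to 3934 without 1 library. The share of calls that were higher in homozygotes than in heterozygotes was 29.7%, against 11.6% with library totals and 44.0% with DESeq2. Against wild type it was 42.5%, and 28.9% with library totals, which moved the median of all genes from -0.06 to -0.22 (log2). For batch it was 52.5%, and 70.5% with library totals, which moved the median of all genes from 0.02 to 0.14. The cause of these shifts was not tested.

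Replicate numbers did not pair the samples, since same-numbered libraries correlated between -0.60 and 0.57. With the replicate block, calls over all genes were 1212 for homozygote against heterozygote, 3079 for homozygote against wild type and 866 for heterozygote against wild type, and 5 of the 71 genes were higher and 2 lower in homozygotes than in heterozygotes. The median log2 fold change of the 71 genes kept its sign under each alternative for homozygote against heterozygote and for batch; against wild type the choice of genes fixes it. No named gene that passed the test changed sign. Wild-type replicate 2 had the fewest reads, 4111828, and the lowest wild-type value of the 71 genes rested on 17 reads there.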
